A study of Mus musculus with 2 samples.

Results

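Messenger RNA of 6 metabolic enzymes, Gapdh, Ldhal6b, G6pd2, Gk, Gusb and Hprt, was measured with 20 spots each on a control and a paraquat array of mouse lung RNA. They were chosen by their probes as the enzymes of metabolism among 15 genes that the array design repeats at 20 positions, and make up 6 of 59729 probes other than control probes. The mice were male BALB/c animals aged 8 weeks with no transgene named in the labels. The control mice received saline, and the paraquat mice received 10 mg/kg paraquat by injection into the abdomen on each of 5 days. The lower lobe of the right lung was taken on day 12, and tissue of 3 lungs was mixed for each array, as the study's deposited design states. That design gives 10 mice per group and a mortality of 70% in the paraquat group. Each group had 1 array, so no test was run. Every SD below is a spread over spots of an array, or over positions where a difference between the arrays is given, and covers no error between mice.

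Paraquat is a herbicide that accepts electrons from cellular reductases and passes them to oxygen, a cycle that uses up NADPH. Cells replenish NADPH mainly through the pentose phosphate pathway, whose entry step is catalysed by glucose-6-phosphate dehydrogenase. Glycolysis, with GAPDH in its middle and lactate dehydrogenase at its end, yields ATP and recycles NADH. Genes of this kind are often used as references, on the assumption that their mRNA level stays constant between samples, and the study measured its PCR products relative to GAPDH. The pair of PCR primers listed for that reference is printed here because the Gapdh result below concerns the same gene.

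GAPDH forward primer: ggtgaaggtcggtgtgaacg
GAPDH reverse primer: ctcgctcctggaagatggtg

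Each probe is tied to its gene by a RefSeq accession in the array files. In RefSeq on the GRCm38.p6 assembly these are Gapdh (NM_008084.2, chromosome 6), Ldhal6b (NM_175349.2, chromosome 17), G6pd2 (NM_019468.2, chromosome 5), Gk (NM_008194.3, chromosome X), Gusb (NM_010368.1, chromosome 5) and Hprt (NM_013556.2, chromosome X). The array was designed on the mm9 assembly, so no positions of the newer assembly are given. The letters of the probes were not analysed here, so the exon each one binds is not known. Of 62 genes in lists of glycolysis, the pentose phosphate pathway, glycerol metabolism, lysosomal glycosidases and purine salvage, these 6 were the genes with a named probe. None of 10 markers of lung epithelium, fibroblasts and testis had a named probe, so the tissue label was not checked against markers.

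Values are spot signals, in the scanner's arbitrary units, after the background had been subtracted by the authors' software. A spot was counted as well above background when that software had marked it so. The difference between the arrays is the paraquat minus the control log2 signal, averaged over spots and taken after quantile normalization, which gives both arrays the same distribution of probe values. Before this step the median log2 signal over 59625 probes was 5.43 for the control and 4.60 for the paraquat RNA, so the direction of a small difference depends on the scaling. Both arrays carry the same scan identifier in their files. They had 384 rows and 164 columns, the same probe sat at the same row and column on both, and 0 spots were saturated.

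After quantile normalization the signals of all 6 enzymes were higher on the paraquat array, by 0.35 for Gusb to 1.31 for Ldhal6b on the log2 scale. A 2-fold rise was reached by 2 of the 6, Gapdh and Ldhal6b, and a 2-fold fall by 0. Over the 32274 probes well above background on both arrays, 15.2% reached a 2-fold rise and 13.6% a 2-fold fall. The median log2 difference was 0.57 over the 6 enzymes and -0.04 over those probes. For Gusb, Hprt, Gk and G6pd2, 67.7% to 75.1% of those probes had a smaller difference. The shares were 87.9% for Gapdh and 89.4% for Ldhal6b. A change in the number of cells of a type and a change in RNA per cell cannot be told apart in mixed lung RNA. Before normalization, the Gapdh spots did not overlap between the arrays. Those of Gusb overlapped only between 1002 and 1037, with the paraquat spots lower. The share of other probes without overlap is not given, and spots of the same array are not replicates of a group. Gapdh was the only enzyme of the 6 at least 2-fold higher in each of the alternatives other than the scaling on Gapdh itself.

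Gapdh encodes the glycolytic enzyme that oxidises glyceraldehyde phosphate and makes NADH. Its 20 spot signals lay between 35559 and 51401 on the control array, with a median of 44524. The paraquat spots lay between 89611 and 115733, with a median of 99688. The dimmest paraquat spot was thus brighter than the brightest control spot. The log2 difference was 1.20, or 2.29-fold, and the SD over the 20 positions was 0.207. It was above 0 at all 20 positions and at least 2-fold at 17 of them, with a range of 0.79 to 1.55. Of 503 probes well above background whose signal lay within 1 log2 unit of that of Gapdh, 98.2% had a smaller difference and 5.37% were at least 2-fold higher. Without normalization the difference was 1.21. With a 75th percentile shift it was 2.13, with a median shift 2.03 and with scaling on spike-in probes 1.89.

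The signals of the Gapdh spots varied with the column of the array. On the control array their median was 39854 over 8 spots in columns 1 to 64 and 46577 over 8 spots in the columns above 80. On the paraquat array the medians were 102473 and 95054, which is the opposite order. These signals had been corrected for a multiplicative trend, which was done for the paraquat array only. Raw foreground signals, taken before any subtraction, had their higher median in the columns above 80 on both arrays. Within columns 1 to 64 the difference between the arrays was 1.36 ± 0.158 (SD over 8 positions), and within the columns above 80 it was 1.04 ± 0.141 (SD over 8 positions). Both sides gave a rise, and the smaller estimate came from the side where the control spots were brighter. The control signal enters the difference, so brighter control spots lower it.

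**Figure D1:**
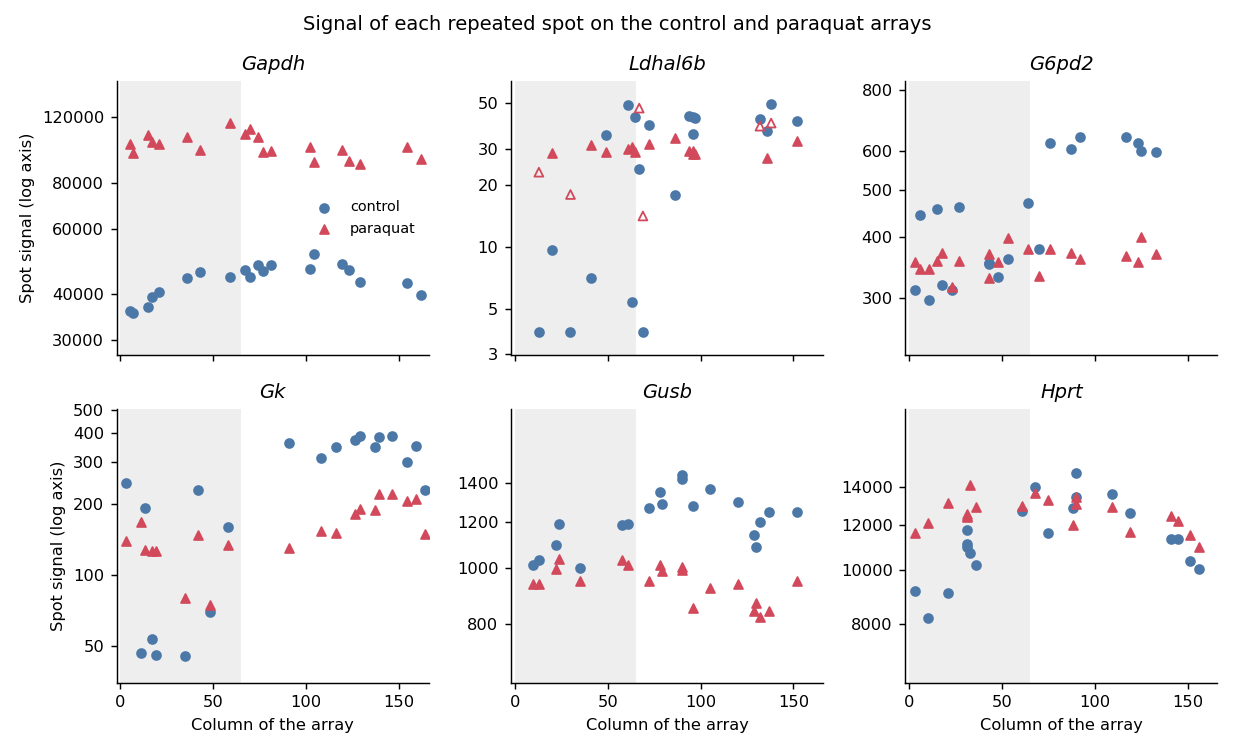
Signal of each of the 20 spots per gene (log axis, arbitrary units) against the column of the array, for the control array (circles) and the paraquat array (triangles). Grey marks columns 1 to 64 and open triangles mark 6 Ldhal6b spots that were left out as outliers. The Gapdh spots of the arrays are apart at every column. Control spots of each gene are lower on average in columns 1 to 64 than in the columns above 80. This is strongest for Ldhal6b, Gk and G6pd2, although single spots of Ldhal6b and Gk overlap between the sides.

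Ldhal6b encodes a lactate dehydrogenase related to the A subunit and known mainly from the testis. It was the member nearest to background. On the control array its 20 spots lay between 3.86 and 49.4 with a median of 36.1, and 13 of them were well above background. The paraquat spots lay between 14.1 and 47.4 with a median of 29.4, and 19 of the 20 passed that mark. The ranges overlapped, and the paraquat median was the lower of the pair before normalization. Negative probes, which match no mouse transcript by design, had a median of 3.86 and a 95th percentile of 29.9 over 1200 spots on the control array, and 3.06 and 13.6 on the paraquat array. Of the Ldhal6b spots, 12 of 20 were above that percentile on the control array and 20 of 20 on the paraquat array. On the control array 3 of its spots had the lowest signal that any spot was given.

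The Ldhal6b difference of 1.31, or 2.48-fold, depended on those dim control spots and on the scaling of the arrays. Without normalization it was 0.52. The log2 spot signals had an SD of 1.40 over 20 control spots and of 0.0896 over 14 paraquat spots, since 6 paraquat spots had been marked as outliers and were left out. At the 14 positions kept on both arrays the mean difference was 0.98, with an SD of 1.07. Before normalization the mean there was 0.18, and 10 of the 14 positions were lower on the paraquat array. Where the control spot was well above background (10 positions), the difference lay between 0.14 and 0.56, and before normalization between -0.71 and -0.26. Where it was not (4 positions), the difference lay between 1.71 and 3.18, and before normalization between 0.93 and 2.51. The control signal enters the difference, so this order follows from the split. At the 4 positions the control signals were 5.39 to 17.8 and the paraquat signals 28.6 to 33.8. Averaged with only the spots well above background on both arrays, the difference was 0.37, and with the median over spots it was 0.54. The call at 2-fold was thus lost when dim spots carried less weight, and also without normalization.

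G6pd2 encodes a second glucose-6-phosphate dehydrogenase, an intronless copy of the X-linked gene G6pdx that is known from the testis. Windows of 300 bases around the gene starts in RefSeq share a run of 27 bases between G6pd2 and G6pdx. G6pdx was the only other gene whose window held a run of that length from the G6pd2 window, among 32851 windows. Between Ldhal6b and Ldha, Ldhb or Ldhc the longest such run was 9 bases. These windows need not hold the probes. Without the probe sequences, signal from G6pd2 could not be told apart from that of G6pdx, nor signal from Ldhal6b from that of its relatives, and the values of both are uncertain in this respect.

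On the control array the G6pd2 spots lay between 298 and 642, with a median of 449.8. The paraquat spots lay between 316 and 399.8, with a median of 359. The ranges overlapped, with the upper part of the control range above all paraquat spots. All 20 spots were well above background on both arrays. The log2 difference was 0.58, or 1.49-fold, with an SD of 0.398 over the 20 positions. Before normalization it was -0.29, and 13 of 20 positions were lower on the paraquat array. The paraquat spots had an SD of 0.0844 and the control spots one of 0.414.

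The control spots of G6pd2 differed between the sides of the array. In the columns above 80 all 6 spots lay between 598 and 642. In columns 1 to 64, 8 spots lay between 298 and 360 and 4 spots between 445 and 470. At the same positions the paraquat signals were 356 to 399.8, 316 to 398 and 344 to 378. Raw paraquat foreground signals there, taken before any subtraction or trend correction, had medians of 448.75, 374.5 and 395.25. The groups of 8 and 4 spots were split at a control signal of 400 after the values were seen. Their rows overlapped, at 89 to 298 and 149 to 342. Within columns 1 to 64 the normalized difference was 0.84 ± 0.249 (SD over 12 positions), and within the columns above 80 it was 0.12 ± 0.102 (SD over 6 positions). The mean difference of G6pd2 was near 0 on the side where its control spots were bright. The control signal enters the difference, so brighter control spots lower it and this order is no separate result.

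Gk, also called Gyk, encodes glycerol kinase, which makes glycerol phosphate for lipid synthesis and for entry into glycolysis. Its control spots lay between 45.5 and 389 with a median of 272, and its paraquat spots between 74.8 and 220.03 with a median of 149.8. The paraquat range lay inside the control range. All 20 spots were well above background on both arrays. The log2 difference was 0.57, or 1.49-fold, with an SD of 0.932 over positions, so it was smaller than the spread between spots. It was -0.35 before normalization, with 15 of 20 positions lower on the paraquat array.

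In columns 1 to 64, 5 control spots of Gk had signals of 45.5 to 69.5 and the other 4 had signals of 160 to 244. These 5 spots lay in columns 11, 17, 19, 35 and 48 and in rows 2 to 230, and 3 of the other 4 lay in rows 318 to 384. The 11 spots in the columns above 80 lay between 229 and 389. Raw foreground signals, taken before any subtraction, were 87 to 113 at the 5 dim spots and 274.5 to 428.5 at the 11. The paraquat signals at the same 5 positions reached from 74.8 to 168.2. The difference at these 5 positions was 1.01 to 2.73, whereas at the other 4 in columns 1 to 64 it was 0.12 to 0.66. Over the 11 positions above column 80 the mean difference was -0.02 ± 0.267 (SD), and 6 of the 11 were above 0. The 5 positions were set apart by their low control signal after it was seen, and that signal enters the difference, so the larger differences there follow from the choice.

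**Figure D2:**
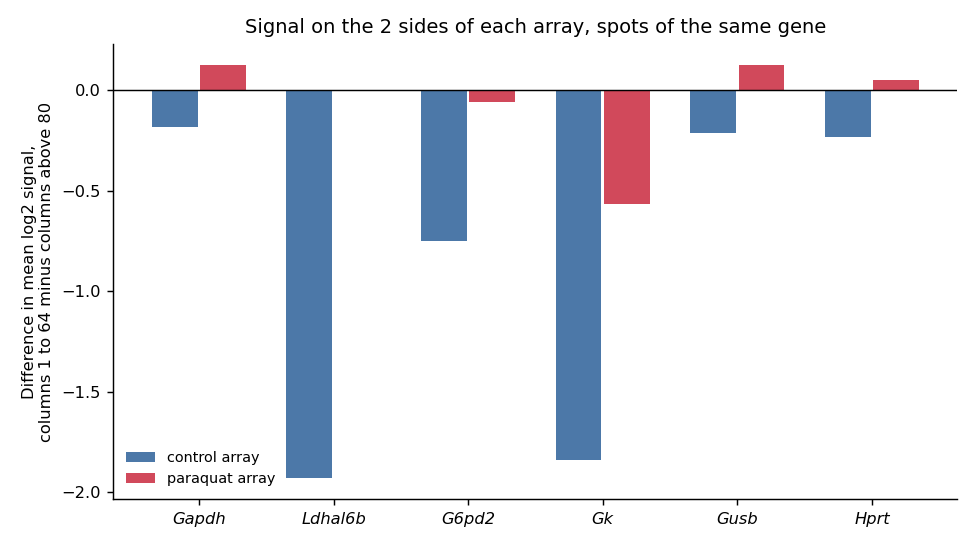
Mean log2 signal of the spots in columns 1 to 64 minus that of the spots in the columns above 80, for each gene on the control array (blue) and the paraquat array (red). Bars reach -1.93 for Ldhal6b, -1.84 for Gk and -0.75 for G6pd2 on the control array, and the control bars of the other genes lie between -0.23 and -0.18. Signals of the paraquat array had been corrected for a multiplicative trend and those of the control array had not.

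Gusb encodes beta-glucuronidase, a lysosomal enzyme that removes glucuronic acid from glycosaminoglycans. Its control spots lay between 1002 and 1449 with a median of 1226, and its paraquat spots between 824 and 1037 with a median of 949.5. The ranges overlapped only between 1002 and 1037. Before normalization the paraquat signal was lower at all 20 positions, with a log2 difference of -0.36. After quantile normalization it was higher at all 20 positions, with a difference of 0.35 and an SD of 0.177. The sign of the Gusb difference was thus set by the scaling of the arrays, with the same order at each position.

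Hprt encodes hypoxanthine guanine phosphoribosyltransferase, which returns purine bases to the nucleotide pool. Its control spots lay between 8198 and 14825 with a median of 11335, and its paraquat spots between 10975 and 14114 with a median of 12503. The paraquat range lay inside the control range. The log2 difference was 0.37, or 1.29-fold, with an SD of 0.217, and all 20 positions were higher after normalization. Before normalization the difference was 0.14 and 14 of 20 positions were higher. A 75th percentile shift raised it to 1.07. Within columns 1 to 64 the normalized difference of Hprt was 0.53 ± 0.199 (SD over 9 positions), and within the columns above 80 it was 0.23 ± 0.128 (SD over 9 positions). For Gusb these values were 0.56 ± 0.0678 (SD over 7 positions) and 0.22 ± 0.0909 (SD over 10 positions).

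**Figure D3:**
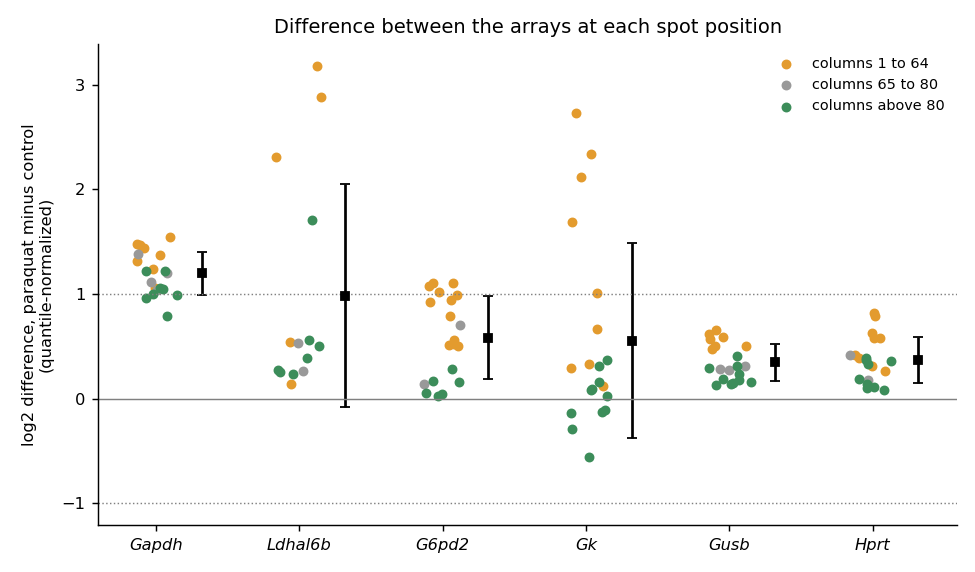
Quantile-normalized log2 difference, paraquat minus control, at each position kept on both arrays (points, coloured by column of the array), with the mean and SD over positions (black squares and bars). Dotted lines mark a 2-fold difference. Points of columns 1 to 64 lie above those of the columns above 80 on average for each gene, with Gapdh near 1.20 and the means of Gusb and Hprt near 0.35 and 0.37.

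The control signals of the 6 enzymes shared a dependence on position. The array columns were chosen with earlier results of these data known, so the values by column are descriptions. On the control array the mean log2 signal in columns 1 to 64 was lower than in the columns above 80 for each of the 6, by differences of -1.93 for Ldhal6b, -1.84 for Gk, -0.75 for G6pd2, -0.23 for Hprt, -0.21 for Gusb and -0.18 for Gapdh. On the paraquat array, the only one corrected for a multiplicative trend, the differences were between -0.56 (Gk) and 0.13 (Gapdh and Gusb). The normalized differences between the arrays followed those of nearby probes. For each position, the median difference of the 50 nearest probes of similar signal was taken. Across positions of the same gene its Pearson correlation with the gene's own difference was 0.812 for Gapdh, 0.886 for G6pd2, 0.877 for Gk, 0.86 for Gusb and 0.87 for Hprt (20 positions each) and 0.757 for Ldhal6b (14 positions). Spearman's rho lay between 0.596 and 0.884. These positions share both arrays and both RNA samples, and the correlations are descriptions.

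Subtraction of that local median lowered the SD over positions for each of the 6 genes, from 0.932 to 0.596 for Gk, from 0.398 to 0.185 for G6pd2, from 0.207 to 0.121 for Gapdh and from 1.07 to 0.819 for Ldhal6b. The reduction was small for Gusb, from 0.177 to 0.161, and for Hprt, from 0.217 to 0.191. The mean differences after it were 1.23 for Gapdh, 1.12 for Ldhal6b, 0.46 for G6pd2, 0.46 for Gk, 0.39 for Gusb and 0.33 for Hprt. The value of Ldhal6b is over the 14 positions kept on both arrays, where its mean before the subtraction was 0.98. The part of array position in the results by gene was not tested beyond these values.

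A scaling factor for a whole array cancels when the differences of a pair of genes are compared. Quantile normalization is not a single factor, so it can change the distance between a pair. Of the 15 pairs among the 6 enzymes, 2 had quantile-normalized differences further apart than 2 combined SDs over positions (the square root of the summed squares of both SDs). These were Gapdh against Gusb, 0.85 apart with a combined SD of 0.272, and Gapdh against Hprt, 0.83 apart with a combined SD of 0.300. Without normalization the same pairs were 1.57 and 1.07 apart, and Gapdh against G6pd2 passed the same limit as well. G6pd2, Gk, Gusb and Hprt lay within 0.23 of each other after quantile normalization, which was less than 2 combined SDs for each pair. The pairs with Gapdh past the limit had unequal signal ratios. The closeness of the other 4 genes does not show that any of them stayed constant.

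Scaling relative to Gapdh subtracts the Gapdh difference from that of each gene, so a gene with a smaller positive difference takes a negative sign. The study measured its PCR products relative to GAPDH, whereas here the subtraction followed quantile normalization of the arrays. On that scale the log2 differences were -0.62 for G6pd2, -0.62 for Gk, -0.85 for Gusb and -0.83 for Hprt, and 0.11 for Ldhal6b. Without any normalization G6pd2, Gk and Gusb had negative differences too, between -0.36 and -0.29, while those of Gapdh, Ldhal6b and Hprt were positive. The sign for Ldhal6b is not firm, since 10 of its 14 positions kept on both arrays were lower on the paraquat array.

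**Figure D4:**
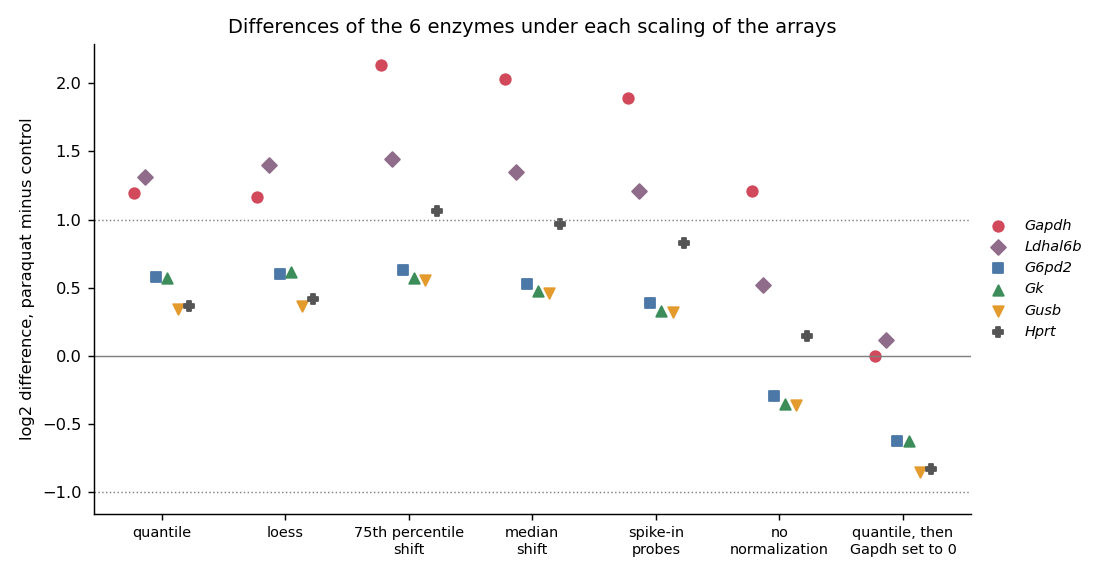
log2 difference, paraquat minus control, of each gene under 7 ways of scaling the arrays, 1 point per gene and scaling with no error bars. Dotted lines mark a 2-fold difference. Gapdh lies between 1.17 and 2.13 wherever it is not itself set to 0, while G6pd2, Gk and Gusb are above 0 in the scalings from quantile to spike-in probes and below 0 in the last 2.

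The other 9 repeatedly spotted genes, none of which is in the pathway lists, had log2 differences between -2.01 and 0.88 with a median of -0.33. Of these, 0 reached a 2-fold rise and 3 a 2-fold fall. The 6 enzymes covered 0.35 to 1.31, a range of 0.96. No test of this difference was run.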

How the data were processed

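Lung RNA was measured on 1-colour Agilent arrays, 1 per group. The authors quantified the scans with Feature Extraction 10.7.3.1 and deposited spot intensity values that are background-subtracted and detrended within an array but not normalized between arrays. A multiplicative trend correction was applied to the paraquat array only. The authors' table of processed values holds none of the 6 probes and was not used. The number of arrays limits the precision.

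Control probes, 20 negative probes and spots marked as non-uniform or population outliers were left out. Log2 signals were averaged by probe and quantile-normalized over 59625 probes, the method the study names. The spread over positions uses spots kept on both arrays. A probe counts as well above background when most of its spots are. Named are the 6 members and genes of fixed pathway lists with a named probe. Members, lists, alternatives and array columns were chosen with earlier results of these data known, and the G6pd2 and Gk position groups after seeing their values. Of 123 RefSeq accessions, 116 matched GRCm38.p6. Normalization was also run on simulated arrays where few probes changed, unlike the real ones, so that run did not test the differences reported here. Python 3.11.15 was used with statsmodels 0.14.6 for loess, matplotlib 3.10.9 for plots, and pandas 2.3.3, numpy 2.4.6 and scipy 1.17.1 otherwise.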

Additional observations from a re-analysis of the deposited data

How the results depend on the processing

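The values were recomputed under 15 other settings and 2 more added after seeing the data, the signal before multiplicative detrending and the positions kept on both arrays. The difference of a gene was taken as moved when it changed by more than its SD over positions. Of 101 such values, 84 did not move. A gene with a wide SD can hardly move by this rule, so the count does not measure how stable the differences were. The difference of Gapdh moved to 2.13 with a 75th percentile shift, 2.03 with a median shift and 1.89 with scaling on 3 spike-in probes, and that of Hprt to 1.07, 0.97 and 0.83. Without normalization G6pd2 moved to -0.29, Gusb to -0.36 and Hprt to 0.14. With scaling on Gapdh, Ldhal6b moved to 0.11, G6pd2 and Gk to -0.62 each, Gusb to -0.85 and Hprt to -0.83. G6pd2 moved to 0.12 in columns above 80, and Gusb to 0.56 in columns 1 to 64 and to 0.56 with a 75th percentile shift. The number of enzymes at 2-fold, 2 as reported, was 3 with a 75th percentile shift (with Hprt) and in columns 1 to 64 (with Gk), 0 with scaling on Gapdh, and 1 (Gapdh) with no normalization, normexp, no background subtraction, the median over spots, spots well above background on both arrays, columns above 80 or positions kept on both arrays. Gk did not move in columns 1 to 64 (1.26) only because its SD is 0.932, and Ldhal6b had 2.34 there. By the same rule Gk did not move without normalization, though its sign changed (-0.35). Ldhal6b, with an SD of 1.07, did not move with normexp (0.32) or without background subtraction (0.43), though it lost the 2-fold call. The range over the 6 genes lay between 0.83 and 1.81. No replicate could be left out, and no paired analysis was possible because each group has 1 array.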
